A study of Mus musculus with 9 samples.

Results

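The cells of interest were 66cl4 mouse mammary carcinoma cells that carried a short hairpin RNA against Eya3 together with IKK2-SE. Of the 52208 genes in the count table, 68 met a minimum level in them and stood over 2-fold above both other groups of cells. A criterion on names left 46 of these, and the 46 genes are described here. They were chosen on group means of CPM, a gene's counts per 1000000 counts of its library. A gene needed at least 1 CPM in IKK2-SE cells and more than 2 times the mean of the knockdown cells and of the scramble cells. Of 11847 genes with at least 1 CPM in IKK2-SE cells, 68 (0.574%) met these levels and folds. The criterion on names left out 22 of the 68, among them C3, Lcn2, Hp, Saa3, the chemokine genes Cxcl1, Ccl7 and Ccl20, and the NF-kB gene Nfkbiz. Just outside the fold lay Fam107a (1.93 times the higher of the other 2 group means), Cbr2 (1.91 times) and Trem2 (1.91 times). Just inside lay Platr22 (2.01 times), Tmem154 (2.05 times) and Osmr (2.10 times). Since the IKK2-SE values chose the genes, their levels in IKK2-SE cells against the other groups are given as a description with no test, and only knockdown against scramble was tested for them.

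The study measured messenger RNA by sequencing in 9 libraries of 66cl4, a mouse line of triple-negative breast cancer, as 3 groups of 3 biological replicates. IKK2-SE cells carried the Eya3 hairpin and a vector for IKK2-SE (shEya3 + IKK2-SE). Knockdown cells carried the Eya3 hairpin and the empty vector (shEya3 + EV). Scramble cells carried a scramble hairpin and the empty vector (SCR + EV). All cells were kept in puromycin for the hairpin and selected on mCherry for the second vector. Eya3 belongs to the Eyes absent family, whose proteins act both as coactivators of transcription and as phosphatases. The 6 libraries with the Eya3 hairpin represent 1 hairpin in 1 line, and no library analysed here combines the scramble hairpin and IKK2-SE. Whether replicates came from separate transductions is not stated, so p-values cover only how far these cultures differ.

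IKK2, encoded by Ikbkb, is the kinase that phosphorylates the inhibitor IkBa, which is then degraded and releases NF-kB dimers into the nucleus. IKK2-SE carries glutamates in place of the activation-loop serines, which makes the kinase active without a stimulus. NF-kB is known for raising adhesion molecules, death receptors, cytokines and acute-phase proteins, and for raising its own inhibitors, among them IkBa, in a feedback loop.

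Library totals ran from 63601403 to 81534534 counts. Eya3 averaged 26.6 ± 2.21 CPM in IKK2-SE cells and 24.5 ± 0.566 CPM in knockdown cells, against 63.6 ± 1.499 CPM in scramble cells (SD, n = 3 each). Of the epithelial markers, Krt8 averaged 1074 CPM in IKK2-SE, 1306 CPM in knockdown and 638 CPM in scramble cells. Krt18, Epcam and Cdh1 stayed under 0.15 CPM in every group, so of these 4 only Krt8 was abundant. Krt14 averaged 0.120, 0.299 and 1.26 CPM in the same groups, and Krt5 0.129, 0.314 and 0.0460 CPM. The mesenchymal marker Vim averaged 2697 CPM in IKK2-SE, 3744 CPM in knockdown and 2810 CPM in scramble cells. Krt8 and Vim were lower in IKK2-SE than in knockdown cells (-0.31 and -0.50 log2, adjusted p 0.000265 and 2.23e-05, edgeR). Of the other mesenchymal markers, Cdh2 was lower too (-0.22 log2, adjusted p 0.00277, edgeR). Fn1 (0.063 log2), Zeb1 (0.0074 log2) and Zeb2 (0.082 log2) were not called. Summed over 5 mesenchymal markers, the level was 4694 to 5138 CPM in IKK2-SE, 5726 to 6290 CPM in knockdown and 4052 to 4455 CPM in scramble libraries. Summed over 11 neutrophil markers, the level was 1.32 to 1.91 CPM in IKK2-SE libraries, 0.138 to 0.183 CPM in knockdown libraries and 0.162 to 0.272 CPM in scramble libraries. Of these, S100a9, Mpo and Retnlg had no count in any library. S100a8, one of the 46, averaged 1.42 CPM in IKK2-SE, 0.109 CPM in knockdown and 0.125 CPM in scramble cells. Camp averaged 0.102, 0 and 0.00864 CPM in the same groups, Ltf 0.0577, 0.0172 and 0.0210 CPM, and Ngp 0.0144, 0.00409 and 0 CPM. Highest in scramble cells were Elane (0.00935, 0.00818 and 0.0285 CPM), Csf3r (0.00883, 0.0173 and 0.0281 CPM) and Cxcr2 (0, 0.00436 and 0.0188 CPM). Ly6g averaged 0.00441, 0 and 0.00432 CPM. Summed over 10 macrophage markers, it was 39.0 to 41.7 CPM in IKK2-SE, 26.9 to 30.6 CPM in knockdown and 52.7 to 56.1 CPM in scramble libraries. Adgre1 was at or under 0.00935 CPM in each group. Of the 5 macrophage markers tested, 3 were higher in IKK2-SE than in knockdown cells by edgeR (background 5.61%). These were Mrc1 (2.16 log2, adjusted p 7.29e-09), Cd14 (0.66 log2, adjusted p 1.12e-05) and Lyz2 (0.29 log2, adjusted p 0.0230). Cd68 (-0.29 log2) and Csf1r (-0.43 log2) were not called. Against scramble cells, Mrc1 (-0.53 log2), Cd14 (-0.37 log2) and Cd68 (-2.08 log2) were called lower in IKK2-SE cells. Lyz2 (0.24 log2) was called higher there, and Csf1r was not called. Mrc1 averaged 4.17 CPM in IKK2-SE, 0.913 CPM in knockdown and 6.10 CPM in scramble cells. Over 10 lymphocyte markers it was 0.224 to 0.404 CPM in IKK2-SE, 0.135 to 0.275 CPM in knockdown and 0.299 to 0.433 CPM in scramble libraries. Over 8 endothelial markers it was 1.68 to 2.03 CPM in IKK2-SE, 0.641 to 1.13 CPM in knockdown and 5.20 to 6.12 CPM in scramble libraries. Over 7 fibroblast markers it was 52.7 to 56.8 CPM in IKK2-SE, 43.4 to 48.1 CPM in knockdown and 49.3 to 50.7 CPM in scramble libraries. Pdgfra alone averaged 42.7 CPM in IKK2-SE, 39.1 CPM in knockdown and 48.7 CPM in scramble cells. Pdgfrb averaged 10.7, 6.96 and 1.26 CPM in the same groups and Dcn 0.714, 0.0636 and 0 CPM. Both were higher in IKK2-SE than in knockdown cells (adjusted p 0.000538 and 0.000379) and higher in knockdown than in scramble cells (adjusted p 2.84e-11 and 0.00465, edgeR). Over 10 keratinocyte markers it was 2.40 to 2.73 CPM in IKK2-SE, 2.18 to 2.79 CPM in knockdown and 1.23 to 1.45 CPM in scramble libraries. The part of other cell types in the results was not tested.

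The promoters of Ebi3, Chil1, Cp and Vnn3 are shown because between them they hold 3 of the 4 motifs searched for: kB consensus matches in Ebi3 and Chil1, a TATA motif in Cp, and C/EBP-type matches in Cp and Vnn3. Ebi3 encodes a cytokine subunit named for its induction by a virus in B cells, Chil1 a secreted chitinase-like protein, Cp the copper-binding plasma protein ceruloplasmin, and Vnn3 a pantetheinase of the vanin family. Each window runs from 250 bases before to 50 bases after the RefSeq start site on GRCm38.p6 (the mm10 build), and capitals mark the matches. The windows are chr17:55952373-55952672 for Ebi3, chr1:134181906-134182205 for Chil1, chr3:19956999-19957298 for the second start site of Cp, and chr10:23851212-23851511 for Vnn3, all on the plus strand and read 5′ to 3′.
Ebi3: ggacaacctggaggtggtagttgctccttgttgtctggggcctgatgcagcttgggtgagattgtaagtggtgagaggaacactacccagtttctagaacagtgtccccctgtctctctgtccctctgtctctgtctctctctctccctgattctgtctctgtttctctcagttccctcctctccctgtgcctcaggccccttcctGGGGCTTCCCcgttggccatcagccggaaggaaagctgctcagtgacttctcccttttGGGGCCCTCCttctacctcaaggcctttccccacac
Chil1: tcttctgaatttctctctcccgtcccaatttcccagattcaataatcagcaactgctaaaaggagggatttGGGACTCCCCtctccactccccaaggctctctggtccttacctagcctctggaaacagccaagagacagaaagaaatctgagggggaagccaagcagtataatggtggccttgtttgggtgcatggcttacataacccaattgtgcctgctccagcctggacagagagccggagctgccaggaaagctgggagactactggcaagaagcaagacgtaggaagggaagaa
Cp: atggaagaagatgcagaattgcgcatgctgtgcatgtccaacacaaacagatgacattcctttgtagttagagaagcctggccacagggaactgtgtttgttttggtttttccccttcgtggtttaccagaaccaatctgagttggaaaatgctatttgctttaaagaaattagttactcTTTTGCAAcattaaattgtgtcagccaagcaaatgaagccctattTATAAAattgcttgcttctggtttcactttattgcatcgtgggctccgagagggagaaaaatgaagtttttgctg
Vnn3: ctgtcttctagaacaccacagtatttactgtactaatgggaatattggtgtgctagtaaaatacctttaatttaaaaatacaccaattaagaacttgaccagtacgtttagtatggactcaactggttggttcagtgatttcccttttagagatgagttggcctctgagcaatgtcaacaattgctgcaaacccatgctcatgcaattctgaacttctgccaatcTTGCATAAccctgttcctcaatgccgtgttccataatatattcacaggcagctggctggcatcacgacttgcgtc
RefSeq windows were at hand for 30 of the 46 genes (34 windows) and for 32851 windows in all. The kB consensus, searched on both strands, was in 3 of the 34 windows (8.82%), those of Atp8b4, Chil1 and Ebi3, against 8.46% of all windows. A narrower kB form, GGG and TTTCC with any 2 bases between, also on both strands, was in 0 of the 34 windows and in 1.63% of all windows. A C/EBP-type TTGCNNAA, on both strands, was in 9 windows (26.5%) against 10.8% of all windows, those of Asb2, Cp, Dio2, Gdpd2, Hal, Klhdc7a, Rassf2, Slc28a3 and Vnn3. TATAAA on the gene's own strand was in 6 windows (17.6%) against 8.32% of all, those of Cp, Dio2, Gdpd2, Icam1, Inmt and S100a8. The windows also differed in base make-up. The ratio of observed to expected CG pairs had a median of 0.327 in the 34 windows and 0.384 in all windows. It was at least 0.6 in 6 of the 34 windows and in 35.8% of all windows. The part of base make-up in the shares of motifs was not tested. The matches describe the letters of the windows and not binding.

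In IKK2-SE cells the 46 genes were mostly of low to moderate level, and most were close to silent in scramble cells. Their group means ran from 1.04 to 212 CPM in IKK2-SE cells with a median over genes of 3.56 CPM, against a median of 0.873 CPM in knockdown cells and 0.279 CPM in scramble cells. No gene was under 1 CPM in IKK2-SE cells, which the rule required, while 24 were in knockdown cells and 35 in scramble cells. Under 0.1 CPM lay 6 genes in knockdown cells and 14 in scramble cells, and Slc7a2 and P3h2 had no count in any scramble library. In all 46 genes each IKK2-SE library lay above all 6 other libraries. The rule chose genes by high IKK2-SE means, which favours this, so nothing is read from it. Whether a few cells expressed a gene strongly or all cells weakly cannot be told apart in bulk RNA.

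**Figure D1:**
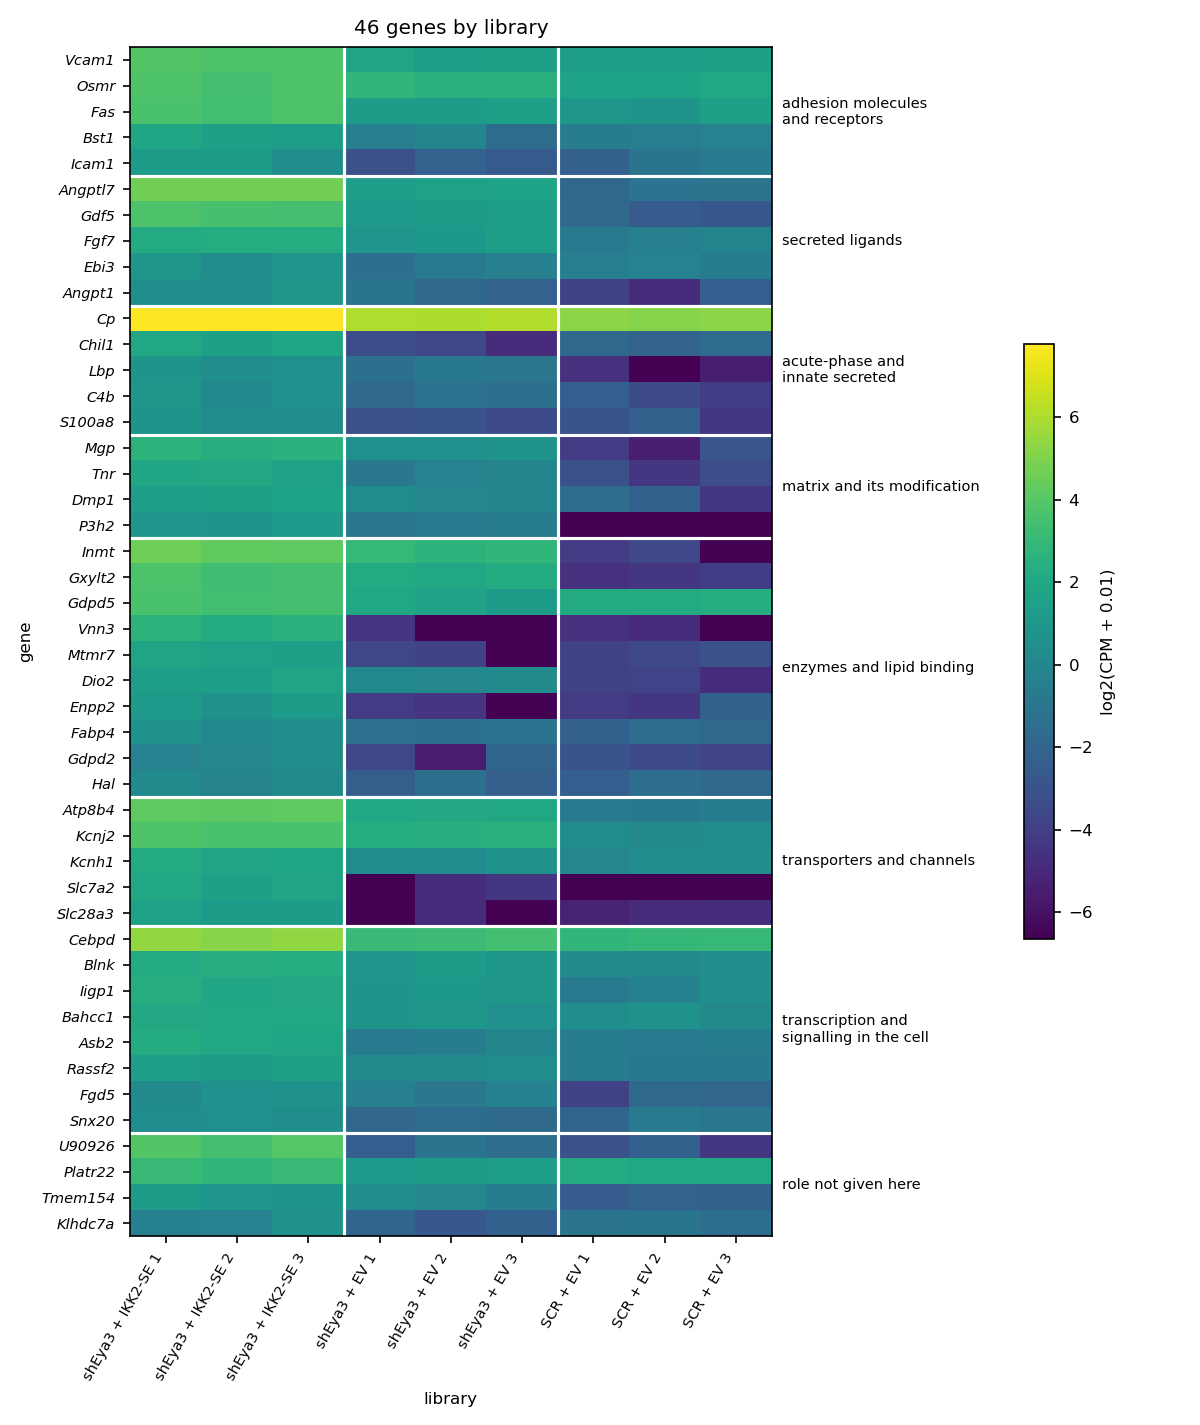
Level of the 46 genes (rows, grouped by role) in the 9 libraries (columns: shEya3 + IKK2-SE, shEya3 + EV, SCR + EV, replicates 1 to 3), as log2(CPM + 0.01), with brighter colours for higher levels. The IKK2-SE columns are brighter than the other 6 in each row, which the choice of genes favours. Several rows, such as Vnn3, Slc7a2 and Slc28a3, are at or near no count outside IKK2-SE cells.

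The folds over the higher of the other 2 group means spread widely. The median over the genes was 3.45-fold, 28 genes stood over 3-fold, 12 over 5-fold, 8 over 10-fold and 3 over 100-fold. Summed over the 46 genes, the level was 539, 489 and 513 CPM in the 3 IKK2-SE libraries, 142, 138 and 146 CPM in the knockdown libraries, and 75.9, 74.2 and 80.2 CPM in the scramble libraries. A single gene, Cp, made up 41.4% of the IKK2-SE sum. Without Cp the sums were 322, 278 and 304 CPM in IKK2-SE libraries, 75.1, 74.0 and 78.1 CPM in knockdown libraries, and 37.3, 38.5 and 41.5 CPM in scramble libraries. Per kilobase of exon, the highest IKK2-SE levels were those of Cp (22.2 CPM per kb), U90926 (17.7), Inmt (12.7), Angptl7 (12.02) and Cebpd (10.7 CPM per kb). The 3 IKK2-SE libraries were not equal: replicate 1 was the highest in 27 of the 46 genes and replicate 2 the lowest in 29. The coefficient of variation over the IKK2-SE libraries had a median of 13.8% and ran from 0.266% to 41.9%.

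In Vnn3, Slc7a2 and Slc28a3 the level was several CPM in IKK2-SE cells and almost no reads in the other groups. Vnn3 (chromosome 10, 23851462 to 23869843, plus strand) had 6.25, 4.57 and 5.95 CPM in the 3 IKK2-SE libraries, 0.0368, 0 and 0 CPM in the knockdown libraries and 0.0314, 0.0259 and 0 CPM in the scramble libraries. Its 3 counts in all knockdown libraries give a ratio of 456 (95% exact interval for counting error 152 to 2157), and its 4 counts in scramble libraries a ratio of 292 (117 to 1105). The gene was thus at the edge of detection in both groups without IKK2-SE. Its log2 difference of -0.47 ± 1.18 between knockdown and scramble carries an adjusted p of 0.764 by edgeR's quasi-likelihood test. Slc7a2, a transporter of arginine and other cationic amino acids (chromosome 8, 40862396 to 40922308, plus strand), had 3.94, 2.92 and 3.36 CPM in IKK2-SE libraries, 0, 0.0250 and 0.0392 CPM in knockdown libraries and no count in scramble libraries. That is 159-fold over knockdown cells (interval 69.4 to 502, from 5 counts) and at least 244-fold higher than in scramble cells, taken against 3 counts over the group. Slc28a3, a concentrative nucleoside transporter (chromosome 13, 58545399 to 58610877, minus strand), had 3.06, 2.34 and 2.46 CPM in IKK2-SE libraries, 0, 0.0250 and 0 CPM in knockdown libraries and 0.0157, 0.0259 and 0.0270 CPM in scramble libraries. Its ratio was 314 over knockdown cells (interval 86.3 to 2591, from 2 counts) and 114 over scramble cells (48.1 to 349, from 5 counts). Between knockdown and scramble, edgeR's adjusted p was 0.0542 for Slc7a2 and 0.312 for Slc28a3. Without knockdown replicate 1 it was 0.0177 for Slc7a2, and without knockdown replicate 2 it was 0.0433 for Slc28a3. The first fit left out the knockdown library without a count of Slc7a2, the second the only knockdown library with counts of Slc28a3. Nothing is therefore read from these 2 values.

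**Figure D2:**
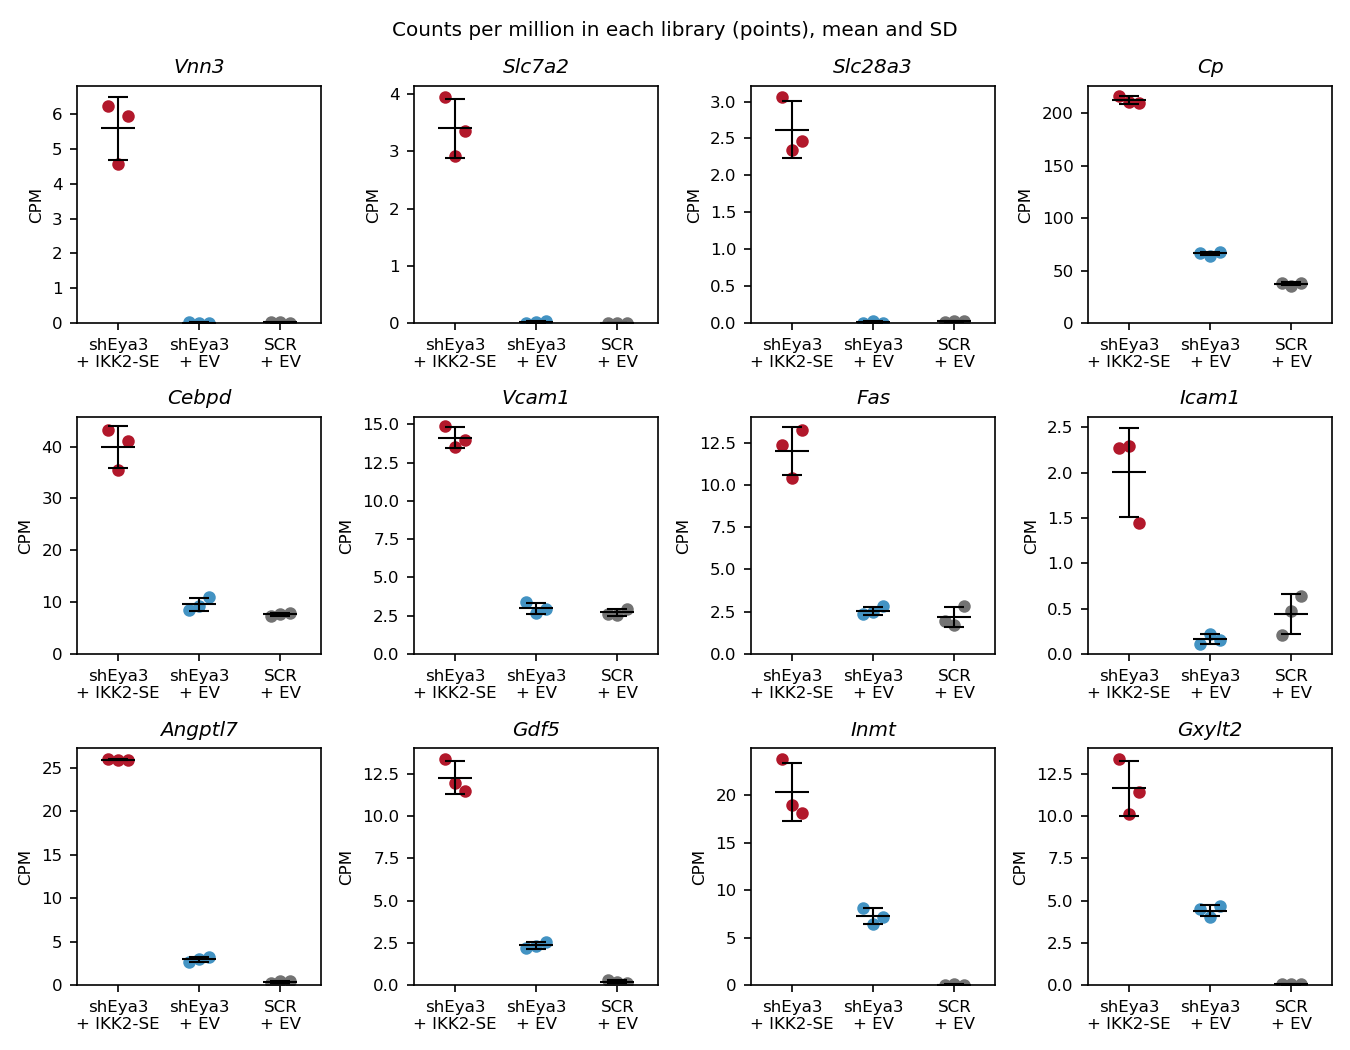
CPM of 12 of the genes in each library (points) with the group mean and SD (bars, n = 3), on linear axes from 0, for shEya3 + IKK2-SE, shEya3 + EV and SCR + EV. In Vnn3, Slc7a2, Slc28a3, Vcam1 and Fas, knockdown and scramble cells lie low together, while Angptl7, Gdf5, Inmt and Gxylt2 are higher in knockdown than in scramble cells and highest in IKK2-SE cells; Cp averaged 212 CPM in IKK2-SE cells, 66.4 CPM in knockdown and 37.6 CPM in scramble cells.

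Knockdown and scramble cells were then compared on the same 46 genes, a contrast the choice of genes did not use directly, although both means enter the rule. Knockdown cells stood higher in 24 genes (52.2%) and lower in 5 (10.9%) at an adjusted p below 0.05 by edgeR, and 17 were not called. Over all 16766 genes tested, 27.7% were called higher and 29.9% lower in knockdown cells. Genes near 0 in scramble cells can hardly be called lower, and both means enter the rule, so nothing is read from these shares, nor from the counts by role given below. All 46 genes passed the filter on low counts, which for those near 0 in the other groups rests on their IKK2-SE libraries. The fitted median log2 difference over the 46 was 0.84, or 0.74 with the 2 genes without scramble counts set at their lower bound, against -0.00146 over all genes. Called and at least 2-fold higher in knockdown cells were 20 genes (43.5%), against 5.3% of all genes, and called and at least 2-fold lower were 3, against 9.36%. The knockdown libraries lay wholly above the scramble libraries in 24 genes (background 26.9%) and wholly below in 4 (background 36.6%).

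The levels of the 3 classes are given as a description. The call of knockdown against scramble set the classes, so their knockdown and scramble medians restate it. The difference of knockdown from scramble cells is called the knockdown step and given as log2 ± SE from edgeR's fit, and means carry ± SD over the 3 libraries of a group. The 24 genes higher in knockdown cells had medians over genes of 4.75 CPM in IKK2-SE cells, 1.76 CPM in knockdown cells and 0.204 CPM in scramble cells. The 5 lower in knockdown cells had medians of 3.44 CPM in IKK2-SE cells, 0.197 CPM in knockdown cells and 0.440 CPM in scramble cells, and the 17 not called had 3.00, 0.295 and 0.279 CPM in the same groups. The ratio of IKK2-SE to knockdown cells, which the rule used, had a median of 2.97 in the first class (2.05 to 43.1), 5.42 in the second (3.37 to 51.8) and 4.74 in the third (2.24 to 456). A gene lower in knockdown than in scramble cells needs a larger such ratio to pass the rule. Nothing is therefore read from these ratios. As a description, for 23 of the genes called higher, P3h2 having no scramble count, the knockdown step made up 14.1% to 83.4% of the whole log2 distance between IKK2-SE and scramble cells, with a median of 57.8%, and in 13 it was over 50%. It was largest in Inmt (83.4%) and Gxylt2 (82.8%) and smallest in Cebpd (14.1%).

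**Figure D3:**
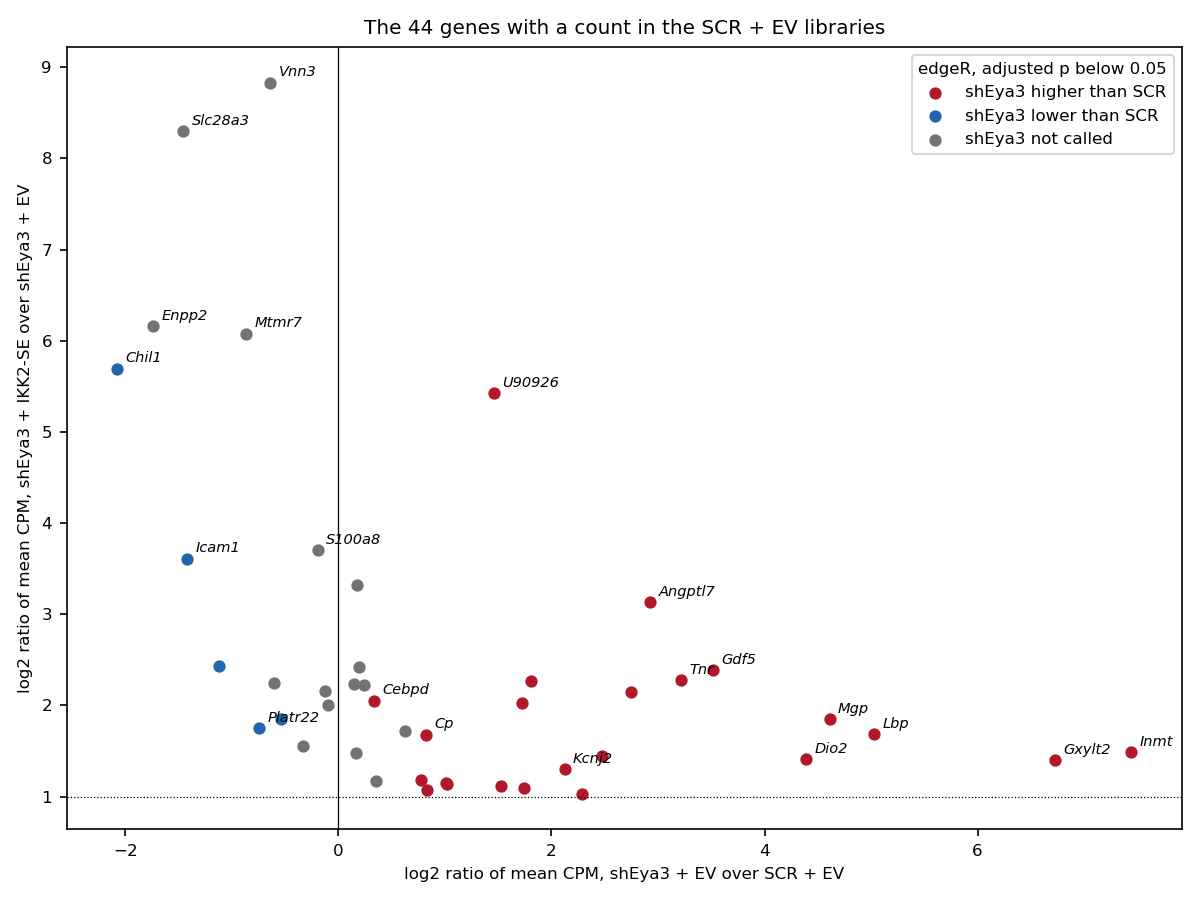
Each point is 1 of the 44 genes with a count in the scramble libraries: log2 ratio of mean CPM of shEya3 + EV over SCR + EV (x) and of shEya3 + IKK2-SE over shEya3 + EV (y), coloured by edgeR's call for knockdown against scramble; the dotted line is the 2-fold limit of the rule. Both axes hold the knockdown mean, so a tilt of the points is not a result, and Slc7a2 and P3h2, with no scramble count, are not drawn. Vnn3, Slc28a3, Enpp2, Mtmr7 and Chil1 lie left of 0, and the genes with the largest knockdown over scramble ratio, Inmt, Gxylt2, Lbp, Mgp and Dio2, have IKK2-SE to knockdown ratios of 2.80, 2.64, 3.22, 3.61 and 2.66.

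Among the adhesion molecules and receptors, 1 of 5 genes was higher in knockdown than in scramble cells, 1 lower, and 3 were not called (background 27.7% higher and 29.9% lower). Roles were grouped after the values were seen. Vcam1, a ligand for leukocyte integrins (chromosome 3, 116109949 to 116129688, minus strand), had 14.9, 13.5 and 14.0 CPM in IKK2-SE libraries, 3.37, 2.66 and 2.96 CPM in knockdown libraries and 2.63, 2.57 and 2.96 CPM in scramble libraries. Knockdown and scramble libraries overlapped, with a log2 difference of 0.19 ± 0.11 and an adjusted p of 0.156 (edgeR), and the IKK2-SE mean was 4.71 times the knockdown mean. Fas, the death receptor, had 12.3, 10.4 and 13.2 CPM in IKK2-SE libraries, 2.38, 2.49 and 2.81 CPM in knockdown libraries and 1.93, 1.72 and 2.84 CPM in scramble libraries. Its knockdown and scramble libraries overlapped too, at a log2 difference of 0.29 ± 0.16 and an adjusted p of 0.147 (edgeR), which was 0.53 and 0.00521 without scramble replicate 3. Icam1, another leukocyte adhesion molecule, had 2.28, 2.30 and 1.44 CPM in IKK2-SE libraries, 0.110, 0.225 and 0.157 CPM in knockdown libraries and 0.204, 0.480 and 0.635 CPM in scramble libraries. Icam1 was lower in knockdown cells, at a log2 difference of -1.39 ± 0.41 and an adjusted p of 0.00837 (edgeR), though its libraries overlapped, and the call was lost without scramble replicate 3 (-1.04, adjusted p 0.0553). Osmr, the receptor subunit for oncostatin M, was the one receptor higher in knockdown cells. Its means were 13.0 ± 1.41 CPM in IKK2-SE cells, 6.17 ± 0.805 CPM in knockdown cells and 3.47 ± 0.326 CPM in scramble cells (SD, n = 3 each). The knockdown step of Osmr was 0.88 ± 0.12 log2 (edgeR, adjusted p 5.83e-06). Bst1, an ectoenzyme also known as CD157, averaged 3.00 ± 0.410 CPM, 0.671 ± 0.317 CPM and 0.733 ± 0.0934 CPM in the same groups, and its knockdown and scramble libraries overlapped (adjusted p 0.844).

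Of the 5 secreted ligands, 4 were higher in knockdown cells, 0 lower and 1 not called (background 27.7% higher and 29.9% lower). Angptl7, an angiopoietin-like secreted protein, had 26.0, 25.9 and 25.9 CPM in IKK2-SE libraries, 2.65, 3.01 and 3.20 CPM in knockdown libraries and 0.267, 0.441 and 0.460 CPM in scramble libraries. The groups were fully apart, the knockdown step being 2.94 ± 0.15 log2 (edgeR, adjusted p 7.35e-11) and the IKK2-SE mean 8.77 times the knockdown mean. Gdf5, a ligand of the bone morphogenetic protein family, had 13.4, 11.99 and 11.5 CPM in IKK2-SE libraries, 2.20, 2.29 and 2.58 CPM in knockdown libraries and 0.299, 0.169 and 0.149 CPM in scramble libraries. It showed the same order of groups without overlap, with a knockdown step of 3.59 ± 0.20 log2 (edgeR, adjusted p 1.94e-10). Fgf7, a growth factor for epithelial cells, averaged 4.72 ± 0.263 CPM in IKK2-SE cells, 2.18 ± 0.360 CPM in knockdown cells and 0.757 ± 0.134 CPM in scramble cells. For Fgf7 the difference of knockdown from scramble cells was 1.56 ± 0.17 log2 (edgeR, adjusted p 7.02e-07). Angpt1, the ligand of the Tie2 receptor, averaged 1.57 ± 0.351 CPM, 0.325 ± 0.135 CPM and 0.0927 ± 0.0857 CPM in those groups. Its knockdown step was 1.84 ± 0.50 log2 (edgeR, adjusted p 0.00485), and 2.93 without scramble replicate 3. Ebi3 did not pass the test: it had 2.00, 1.36 and 1.80 CPM in IKK2-SE libraries, 0.393, 0.613 and 0.758 CPM in knockdown libraries and 0.708, 0.843 and 0.676 CPM in scramble libraries (adjusted p 0.344). Its promoter, printed above, holds 2 separate kB consensus matches, beginning 44 bases before and 15 bases after the start site.

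The acute-phase and innate secreted proteins held the most abundant gene of the set. Cp (chromosome 3, 19957054 to 20009145, plus strand) had 217, 211 and 209 CPM in IKK2-SE libraries, 67.0, 64.4 and 67.8 CPM in knockdown libraries and 38.6, 35.7 and 38.6 CPM in scramble libraries. The 3 groups were far apart relative to their spread, and the knockdown step was 0.87 ± 0.04 log2 (edgeR, adjusted p 2.64e-11). Chil1, also known as Chi3l1, went the other way at the knockdown step. It had 3.89, 2.92 and 3.52 CPM in IKK2-SE libraries, 0.0981, 0.0751 and 0.0262 CPM in knockdown libraries and 0.283, 0.233 and 0.325 CPM in scramble libraries. All 3 knockdown libraries lay below all 3 scramble libraries (-1.98 ± 0.39 log2, edgeR adjusted p 0.000366). The IKK2-SE mean was 51.8 times the knockdown mean (exact interval 31.4 to 90.2, from 16 counts). It was 12.3 times the scramble mean (9.48 to 16.3, from 60 counts). S100a8, a calcium-binding protein known mainly from neutrophils, had 1.76, 1.21 and 1.30 CPM in IKK2-SE libraries, 0.110, 0.125 and 0.0915 CPM in knockdown libraries and 0.126, 0.207 and 0.0406 CPM in scramble libraries. Knockdown and scramble libraries of S100a8 overlapped (adjusted p 0.819, edgeR). Its usual partner S100a9 had no count in any library. Lbp, the lipopolysaccharide-binding protein, had 1.77, 1.46 and 1.48 CPM in IKK2-SE libraries, 0.393, 0.563 and 0.510 CPM in knockdown libraries and 0.0314, 0 and 0.0135 CPM in scramble libraries. With 3 scramble counts, the ratio to scramble cells was 105 for IKK2-SE cells (exact interval 38.3 to 550) and 32.6 for knockdown cells (11.6 to 172). The knockdown step of Lbp was 5.01 ± 0.50 log2 (edgeR, adjusted p 2.66e-07), or 5.93 without scramble replicate 1. C4b, a complement component, averaged 1.49 ± 0.454 CPM in IKK2-SE cells, 0.366 ± 0.0717 CPM in knockdown cells and 0.111 ± 0.0696 CPM in scramble cells. The knockdown step of C4b was 1.79 ± 0.42 log2 (edgeR, adjusted p 0.00166), and its near-identical copy C4a makes its counts uncertain.

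The matrix proteins Mgp, Tnr and Dmp1 and the collagen-modifying enzyme P3h2 were each higher in knockdown than in scramble cells (background 27.7% higher and 29.9% lower), and higher again in IKK2-SE cells, as the rule requires. Mgp, the matrix Gla protein that limits mineral deposition, had 6.25, 5.12 and 5.87 CPM in IKK2-SE libraries, 1.52, 1.501 and 1.75 CPM in knockdown libraries and 0.0472, 0.0130 and 0.135 CPM in scramble libraries. Its knockdown step was 4.62 ± 0.32 log2 (edgeR, adjusted p 3.40e-09), and 5.77 without scramble replicate 3. Tnr, tenascin-R, known mainly from nervous tissue, averaged 3.67 ± 0.572 CPM in IKK2-SE cells, 0.756 ± 0.203 CPM in knockdown cells and 0.0812 ± 0.0374 CPM in scramble cells. For Tnr the difference of knockdown from scramble cells was 3.27 ± 0.36 log2 (edgeR, adjusted p 8.39e-07). Dmp1, a protein of bone and dentin matrix, averaged 2.91 ± 0.331 CPM, 1.07 ± 0.165 CPM and 0.193 ± 0.145 CPM in the same groups. For Dmp1 the difference of knockdown from scramble cells was 2.55 ± 0.35 log2 (edgeR, adjusted p 1.12e-05). P3h2, which hydroxylates prolines of collagens, had 1.87, 1.75 and 2.10 CPM in IKK2-SE libraries, 0.527, 0.625 and 0.667 CPM in knockdown libraries and no count in scramble libraries. Against 3 counts over the scramble group it was at least 137-fold higher in IKK2-SE cells and at least 43.4-fold higher in knockdown cells (edgeR adjusted p 3.20e-08 for knockdown against scramble).

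The enzymes and lipid-binding proteins, 10 in all, held 3 genes higher in knockdown cells, 1 lower and 6 not called (background 27.7% higher and 29.9% lower). Inmt, an indolethylamine methyltransferase, had 23.8, 18.9 and 18.1 CPM in IKK2-SE libraries, 8.12, 6.44 and 7.19 CPM in knockdown libraries and 0.0472, 0.0778 and 0 CPM in scramble libraries. Its knockdown step of 7.43 ± 0.30 log2 (edgeR, adjusted p 7.45e-12) rests on 9 scramble counts, and was 8.32 without scramble replicate 2 and 6.84 without replicate 3. Gxylt2, a xylosyltransferase that acts on Notch, had 13.4, 10.1 and 11.5 CPM in IKK2-SE libraries, 4.53, 4.03 and 4.67 CPM in knockdown libraries and 0.0314, 0.0389 and 0.0541 CPM in scramble libraries. The knockdown step of Gxylt2 was 6.71 ± 0.24 log2 (edgeR, adjusted p 1.01e-12). Dio2, which converts thyroxine to the active thyroid hormone, averaged 2.88 ± 0.420 CPM in IKK2-SE cells, 1.08 ± 0.0728 CPM in knockdown cells and 0.0516 ± 0.0213 CPM in scramble cells. For Dio2 the difference of knockdown from scramble cells was 4.40 ± 0.30 log2 (edgeR, adjusted p 2.93e-09). In contrast, Mtmr7, a phosphoinositide phosphatase of the myotubularin family, had 3.35, 3.06 and 2.80 CPM in IKK2-SE libraries, 0.0736, 0.0625 and 0 CPM in knockdown libraries and 0.0629, 0.0778 and 0.108 CPM in scramble libraries. Enpp2, autotaxin, which makes lysophosphatidic acid, had 2.18, 1.71 and 2.29 CPM in IKK2-SE libraries, 0.0491, 0.0375 and 0 CPM in knockdown libraries and 0.0472, 0.0389 and 0.203 CPM in scramble libraries. In both genes knockdown and scramble libraries overlapped. By edgeR the adjusted p was 0.292 for Mtmr7 and 0.0836 for Enpp2, or 0.0355 for Enpp2 without scramble replicate 2. The IKK2-SE mean of Mtmr7 was 67.6 times the knockdown mean (exact interval 36.9 to 134, from 11 counts). For Enpp2 it was 71.4 times (33.7 to 175, from 7 counts). Over the scramble means the ratios were 37.0 for Mtmr7 (23.0 to 62.3) and 21.4 for Enpp2 (13.6 to 34.4).

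Gdpd5, a glycerophosphodiester phosphodiesterase, was the enzyme lower in knockdown cells, with means of 11.3 ± 0.903 CPM in IKK2-SE cells, 3.14 ± 0.646 CPM in knockdown cells and 4.57 ± 0.223 CPM in scramble cells. For Gdpd5 the difference of knockdown from scramble cells was -0.49 ± 0.13 log2 (edgeR, adjusted p 0.00336). Its relative Gdpd2 averaged 1.07 ± 0.283 CPM, 0.107 ± 0.115 CPM and 0.0947 ± 0.0293 CPM in the same groups and was not called (adjusted p 0.803). Fabp4, a fatty acid binding protein known from adipocytes and macrophages, averaged 1.37 ± 0.309 CPM in IKK2-SE cells, 0.416 ± 0.0364 CPM in knockdown cells and 0.271 ± 0.0663 CPM in scramble cells. Its adjusted p for knockdown against scramble was 0.0663, or 0.0456 without scramble replicate 2 (edgeR). Hal, which breaks down histidine, averaged 1.04 ± 0.167 CPM, 0.260 ± 0.111 CPM and 0.279 ± 0.0823 CPM in those groups (adjusted p 0.891).

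Among transporters and channels, Atp8b4 and Kcnj2 were higher in knockdown cells, and Kcnh1, Slc7a2 and Slc28a3 were not called (background 27.7% higher and 29.9% lower). Atp8b4, a lipid-flipping ATPase, had 18.2, 17.2 and 18.0 CPM in IKK2-SE libraries, 3.90, 4.13 and 4.002 CPM in knockdown libraries and 0.582, 0.557 and 0.649 CPM in scramble libraries. The replicates of each group lay close together, and the knockdown step was 2.79 ± 0.11 log2 (edgeR, adjusted p 3.81e-12). Kcnj2, an inward-rectifier potassium channel, had 14.0, 12.5 and 12.6 CPM in IKK2-SE libraries, 4.83, 5.24 and 5.71 CPM in knockdown libraries and 1.29, 1.09 and 1.24 CPM in scramble libraries. The knockdown step of Kcnj2 was 2.17 ± 0.11 log2 (edgeR, adjusted p 9.12e-11). Kcnh1, a voltage-gated potassium channel, averaged 3.79 ± 0.583 CPM in IKK2-SE cells, 1.36 ± 0.229 CPM in knockdown cells and 1.21 ± 0.205 CPM in scramble cells, with overlapping knockdown and scramble libraries (adjusted p 0.377).

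Of 8 genes of transcription and signalling inside the cell, 5 were higher in knockdown cells, 0 lower and 3 not called (background 27.7% higher and 29.9% lower). Cebpd, a transcription factor of the acute-phase response that binds C/EBP-type sites (chromosome 16, 15887286 to 15891031, plus strand), had 43.1, 35.5 and 41.1 CPM in IKK2-SE libraries, 8.56, 9.32 and 11.0 CPM in knockdown libraries and 7.26, 7.73 and 7.88 CPM in scramble libraries. Its IKK2-SE mean was 4.15 times the knockdown mean, whereas the knockdown step was 0.38 ± 0.09 log2 (edgeR, adjusted p 0.00224). Blnk, an adaptor of B-cell receptor signalling, averaged 4.77 ± 0.205 CPM in IKK2-SE cells, 2.10 ± 0.258 CPM in knockdown cells and 1.22 ± 0.113 CPM in scramble cells. For Blnk the difference of knockdown from scramble cells was 0.82 ± 0.14 log2 (edgeR, adjusted p 0.000103). Asb2, a subunit of a ubiquitin ligase, averaged 3.97 ± 0.531 CPM, 0.740 ± 0.203 CPM and 0.645 ± 0.0653 CPM in those groups and was not called (adjusted p 0.373). Iigp1, an interferon-inducible GTPase, averaged 4.27 ± 0.749 CPM in IKK2-SE cells, 1.92 ± 0.124 CPM in knockdown cells and 0.955 ± 0.447 CPM in scramble cells (adjusted p 0.00136, edgeR). Bahcc1, a large chromatin protein with a BAH domain, averaged 4.01 ± 0.108 CPM, 1.79 ± 0.210 CPM and 1.40 ± 0.304 CPM in the same groups. Its adjusted p of 0.0510 for knockdown against scramble was 0.0158 without scramble replicate 2 and 0.0331 without knockdown replicate 3 (edgeR). Rassf2 and Fgd5, a Ras-association protein and an exchange factor for Cdc42, were higher in knockdown cells (adjusted p 7.89e-05 and 0.000600, edgeR). Rassf2 averaged 2.59 ± 0.278 CPM in IKK2-SE cells, 1.18 ± 0.0699 CPM in knockdown cells and 0.585 ± 0.0513 CPM in scramble cells, and Fgd5 averaged 1.47 ± 0.274 CPM, 0.690 ± 0.154 CPM and 0.206 ± 0.126 CPM in the same groups. Snx20, a sorting nexin, averaged 1.39 ± 0.116 CPM in IKK2-SE cells, 0.295 ± 0.0343 CPM in knockdown cells and 0.448 ± 0.192 CPM in scramble cells. It was not called (adjusted p 0.128), though its adjusted p was 0.0146 without scramble replicate 1 (edgeR).

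No role is given here for U90926, Platr22, Tmem154 and Klhdc7a. Of them, 2 were called higher in knockdown cells and 2 lower (background 27.7% higher and 29.9% lower). U90926 had 15.2, 11.5 and 15.9 CPM in IKK2-SE libraries, 0.184, 0.463 and 0.340 CPM in knockdown libraries and 0.110, 0.207 and 0.0406 CPM in scramble libraries. Its IKK2-SE mean was 43.1 times the knockdown mean, and its knockdown step of 1.47 ± 0.48 log2 (edgeR, adjusted p 0.0158) came with overlapping libraries. That call was lost without scramble replicate 3 (1.05, adjusted p 0.0687) and without knockdown replicate 2 (1.14, adjusted p 0.0841), the step was 2.20 without scramble replicate 2, and limma's voom fit gave an adjusted p of 0.0722. Platr22, a long noncoding RNA in GENCODE, averaged 8.24 ± 0.992 CPM in IKK2-SE cells, 2.44 ± 0.251 CPM in knockdown cells and 4.10 ± 0.368 CPM in scramble cells. For Platr22 the difference of knockdown from scramble cells was -0.70 ± 0.12 log2 (edgeR, adjusted p 0.000122). Tmem154 averaged 2.02 ± 0.377 CPM, 0.989 ± 0.323 CPM and 0.203 ± 0.0302 CPM in those groups. For Tmem154 the difference of knockdown from scramble cells was 2.32 ± 0.30 log2 (edgeR, adjusted p 5.02e-06). Klhdc7a averaged 1.07 ± 0.447 CPM in IKK2-SE cells, 0.197 ± 0.0548 CPM in knockdown cells and 0.429 ± 0.0558 CPM in scramble cells. Its knockdown step of -1.06 ± 0.36 log2 (edgeR, adjusted p 0.0192) was no longer called without scramble replicate 2 (-0.99, adjusted p 0.0594) or knockdown replicate 2 (-0.86, adjusted p 0.0834).

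The NF-kB pathway itself was read from a list of 53 components, of which 50 were tested and 0 are among the 46 genes. In IKK2-SE against knockdown cells, 16 were higher and 1 lower by edgeR, against a background of 5.61% higher and 4.82% lower over all genes, and the median log2 difference was 0.10 against 0.000583 over all genes. Against scramble cells, 9 were higher and 26 lower (background 27% and 28.7%), with a median of -0.19. Of the 16 components higher than in knockdown cells, 3 were also higher than in scramble cells (Nfkbiz, Nfkb1 and Tnfrsf1b), 10 were lower than in scramble cells and 3 were not called. Nfkbia, which encodes the inhibitor IkBa, averaged 109.8 ± 1.70 CPM in IKK2-SE cells, 43.5 ± 0.0716 CPM in knockdown cells and 225 ± 5.22 CPM in scramble cells. It rose by 1.31 ± 0.04 log2 over knockdown cells (adjusted p 4.11e-13) and stood -1.01 ± 0.03 log2 from scramble cells (adjusted p 4.98e-13, edgeR). Bcl3, a nuclear IkB protein, averaged 3.07 ± 0.152 CPM, 1.39 ± 0.130 CPM and 11.6 ± 0.652 CPM in the same groups. Bcl3 thus stood 1.12 ± 0.11 log2 over knockdown cells (adjusted p 5.69e-06) and -1.89 ± 0.10 log2 against scramble cells (adjusted p 6.97e-11, edgeR). Nfkbiz, also a nuclear IkB protein, averaged 44.1 ± 1.28 CPM in IKK2-SE cells, 15.7 ± 0.936 CPM in knockdown cells and 18.5 ± 1.35 CPM in scramble cells. It stood 1.46 ± 0.06 log2 over knockdown cells (edgeR), met the levels and folds and was left out by name. The rule used the rise of Nfkbiz, so it is given as a description with no test. The 16 components and the 3 above include Nfkbiz. Nfkb1, the p105 precursor of p50, averaged 146 ± 6.09 CPM, 96.7 ± 0.610 CPM and 95.6 ± 2.81 CPM in those groups (0.56 ± 0.04 log2 over knockdown cells, adjusted p 3.03e-08, edgeR). Traf6, an adaptor upstream of IKK, was the one component lower than in knockdown cells (-0.20 ± 0.06 log2, adjusted p 0.0490, edgeR). That call was lost in 5 of the 9 fits that left out a library, those without IKK2-SE replicate 1 or 3, knockdown replicate 2, or scramble replicate 1 or 2. Ikbkb averaged 48.7 ± 1.30 CPM in IKK2-SE cells, 43.5 ± 0.447 CPM in knockdown cells and 48.5 ± 2.71 CPM in scramble cells and was not called against either (adjusted p 0.0809 and 0.682, edgeR). Whether reads of the vector's IKK2-SE count to it is not stated.

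**Figure D4:**
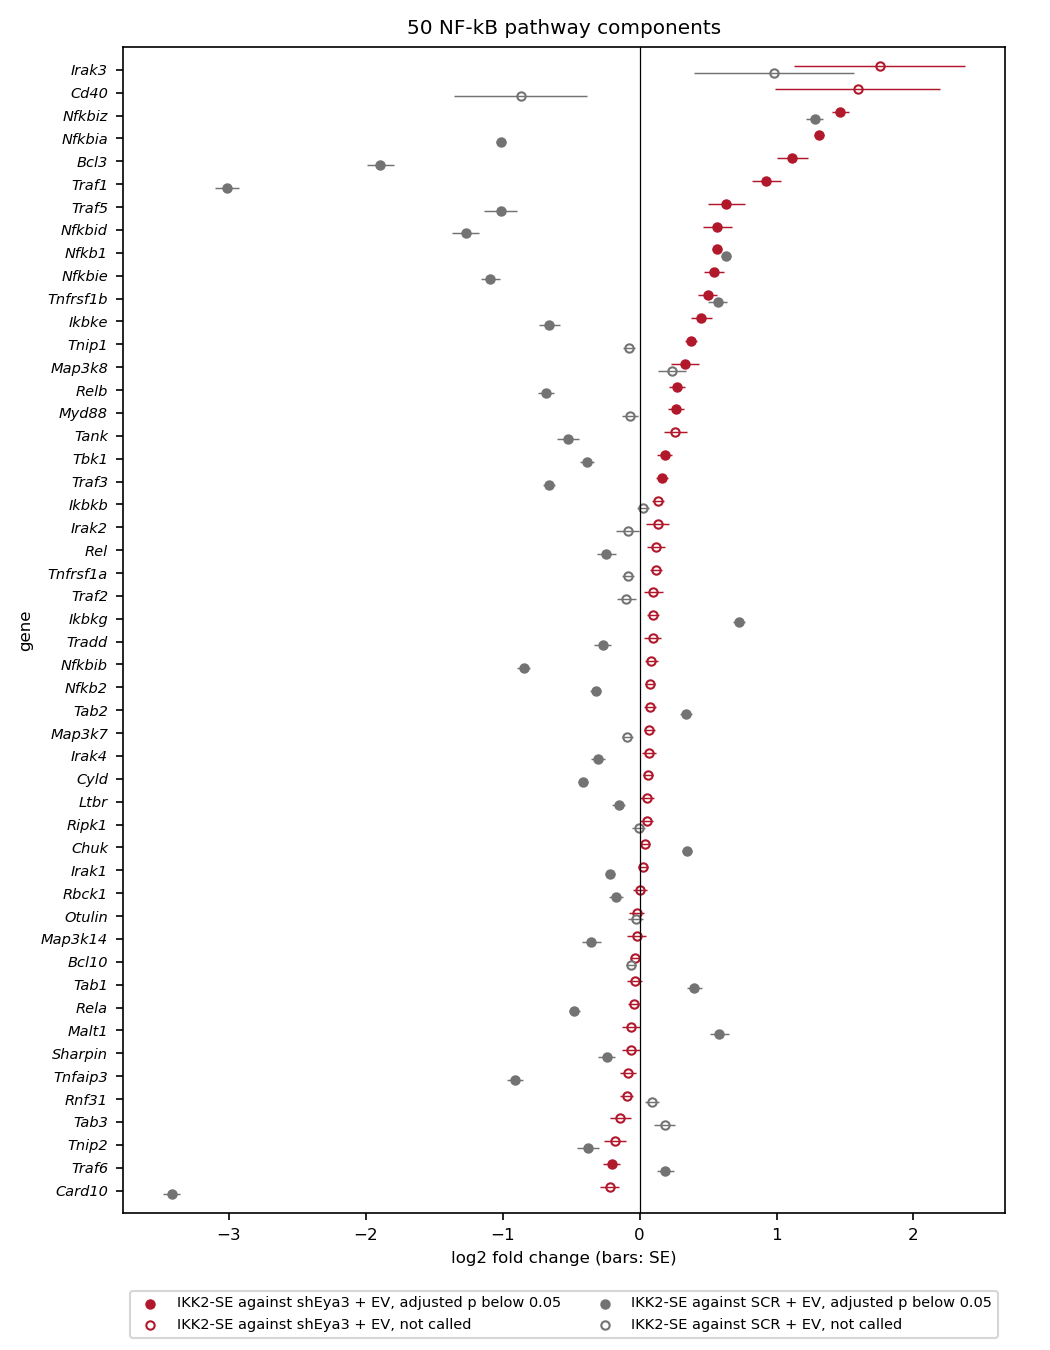
Log2 fold change with its standard error for the 50 tested NF-kB components (rows, sorted by the first contrast): IKK2-SE against shEya3 + EV in red and IKK2-SE against SCR + EV in grey, filled where edgeR's adjusted p was below 0.05. At the top, the red points of Nfkbia, Bcl3 and Traf1 lie right of 0 and their grey points left of it, while Nfkbiz and Nfkb1 lie right of 0 in both.

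A second list held 70 genes known as NF-kB targets, 8 of which are also on the component list. It was drawn up to avoid the names left out by the rule, but it holds Nfkbiz, which was left out by name. Of the 46 genes, 5 are on it: Vcam1, Icam1, Fas, S100a8 and Chil1. Of the 41 other tested genes on it, 16 were higher and 6 lower in IKK2-SE than in knockdown cells by edgeR. Against scramble cells, 15 were higher and 19 lower in IKK2-SE cells (edgeR, backgrounds as above). Nfkbiz, which met the levels and folds of the rule, is counted as higher in both contrasts. The median log2 difference was 0.17 against knockdown cells and -0.08 against scramble cells. Vegfc, a growth factor of lymphatic vessels, and Traf1, an adaptor of tumour necrosis factor receptors, were above knockdown but below scramble cells. A level below scramble cells keeps a gene out of the set. Both genes were chosen after their values were seen. Traf1 also stood less than 2-fold above knockdown cells, so it failed the rule against both groups. Vegfc stood 2.30 ± 0.23 log2 above knockdown cells (adjusted p 3.72e-06) and -3.71 ± 0.14 log2 against scramble cells (adjusted p 1.22e-12, edgeR), and Traf1 0.93 ± 0.10 log2 and -3.01 ± 0.09 log2 in the same contrasts (adjusted p 1.58e-05 and 6.99e-14, edgeR).

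In the genome the 46 genes were scattered over 19 chromosomes with at most 5 on any, and 45 are protein coding in GENCODE. Only 2 pairs lay within 1000000 bases of each other. Fgf7 and Atp8b4 on chromosome 2 were 229788 bases apart, with the tested gene Dtwd1 between them. Mtmr7 (chromosome 8, 40551095 to 40634797, minus strand) and Slc7a2 on chromosome 8 were 227599 bases apart, with Gm45660 as the tested gene between. The gene on the other side of Slc7a2, 3904 bases away, is Pdgfrl, a receptor-like protein, which had 0.569, 0.210 and 0.245 CPM in IKK2-SE libraries, 0.0491, 0 and 0 CPM in knockdown libraries and 0.0157, 0.0518 and 0 CPM in scramble libraries. Pdgfrl is not one of the 46, since it was under 1 CPM, and it stood 4.20 ± 0.87 log2 above knockdown cells (adjusted p 0.00433, edgeR). Of the other genes around the pair, Zdhhc2, Vps37a and Mtus1 were 0.26 ± 0.05, 0.25 ± 0.07 and 0.21 ± 0.06 log2 above knockdown cells, Pcm1 was -0.14 ± 0.04 log2, all called by edgeR, and Micu3, Mir7666, Cnot7, Gm45660, Fgl1, Asah1 and Frg1 were not called. The values of Mir7666 and Fgl1 were -1.23 ± 0.62 and 0.85 ± 0.29 log2 (SE). This stretch was chosen for display after its values were seen.

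**Figure D5:**
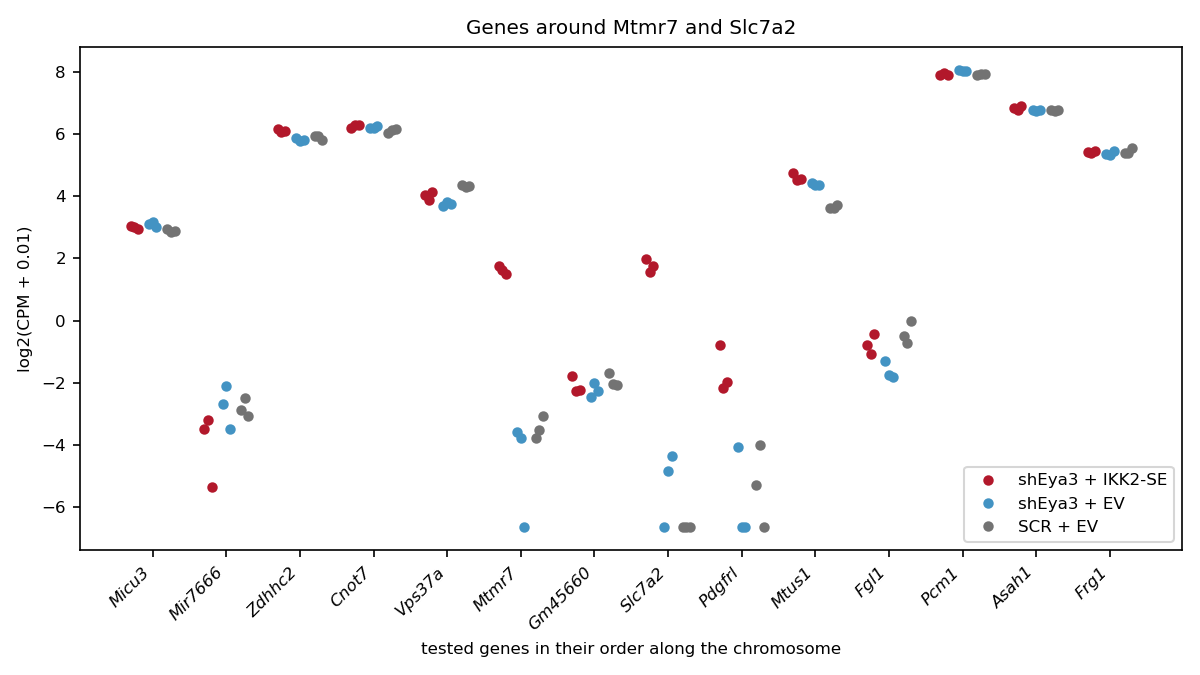
Level of 14 tested genes in their order along the chromosome around Mtmr7 and Slc7a2, as log2(CPM + 0.01) for each library of shEya3 + IKK2-SE, shEya3 + EV and SCR + EV, with spacing not to scale. Mtmr7, Slc7a2 and Pdgfrl stand high in the IKK2-SE libraries, and Gm45660 between them, like Cnot7, Asah1 and Frg1, does not.

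Over the nearest tested genes on either side of all 46, 90 in number, 15 were higher (16.7%, background 5.61%) and 4 lower (4.44%, background 4.82%) in IKK2-SE than in knockdown cells by edgeR. In knockdown against scramble cells, 34 were higher (37.8%, background 27.7%) and 27 lower (30.0%, background 29.9%). The medians were 0.05 and 0.02 log2. Among these neighbours Trp63, a transcription factor of basal epithelium next to P3h2, averaged 26.3 CPM in IKK2-SE cells, 18.4 CPM in knockdown cells and 0.0278 CPM in scramble cells. Spp1, osteopontin, next to Dmp1, averaged 2394 CPM, 1639.9 CPM and 199 CPM in those groups and rose by 3.09 ± 0.05 log2 in knockdown over scramble cells (adjusted p 4.09e-17, edgeR). Nod2, a sensor of bacterial cell wall next to Snx20, was 1.80 ± 0.38 log2 above knockdown cells in IKK2-SE cells (adjusted p 0.00543) and -2.99 ± 0.36 log2 in knockdown against scramble cells (adjusted p 2.04e-06, edgeR). These 3 neighbours were picked after their values were seen. Over the 20 tested genes on each side of a member, the median log2 difference of IKK2-SE from knockdown cells lay between -0.06 and 0.08 for all 46. For knockdown against scramble cells it ran from -0.66 around Kcnh1 to 0.49 around Asb2. It was -0.55 around Hal, 0.36 around Dmp1, 0.35 around U90926 and 0.35 around Vcam1. Strand was not given for the counting, and 20 of the 46 overlap another gene with a count, such as Angptl7 inside Mtor, Cebpd with Spidr, Bst1 with Fbxl5, Cp with Hps3 and Kcnh1 with Hhat, all on opposite strands. If the counting ignored strand, reads of such partners on opposite strands cannot be told apart.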

How the data were processed

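The deposited table holds raw counts, 1 whole number per gene symbol and library, made by the authors from messenger RNA libraries per the labels' protocols. The submitters' processing notes name FastQC, MultiQC, STAR and the mm10 build. The counting program, the gene annotation and the strandedness used are not stated there or in the labels. Columns were matched to samples by arm and replicate number. The hairpin columns read KD3 where the titles read KD2, so which hairpin was used is not stated.

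CPM was each count over its column total. The membership rule used group means of CPM (minimum 1, fold 2). Counts were tested with edgeR 4.0.16 in R 4.3.3 (TMM, robust quasi-likelihood fit over all 9 libraries, group as the only term, 6 residual degrees of freedom, common biological coefficient of variation 5.26%). The filter filterByExpr (minimum count 10, total 15) left 16766 genes, and p was adjusted over all of them (Benjamini-Hochberg) and called at 0.05. The edgeR fit was tested on counts simulated with the same spread for every gene. Changes were put only into genes above a minimum expected count, so the simulation does not cover genes with few counts. Alternatives were DESeq2 1.42.0, limma 3.58.1 (voom), other scaling and filters, a replicate block, the 2 groups alone and each library left out.

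Replicates differed by more than sampling noise (chi-square per degree of freedom 4.16 to 23.6), so none was taken as a repeat. Ratios to groups with few counts carry exact 95% intervals and a floor of 3 counts over the group. Both cover counting error only, since reads are not independent molecules. Positions are GRCm38/mm10 from GENCODE, 1-based, and promoters are from RefSeq.

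The members, lists and tests were chosen with earlier results of these data known. The roles were grouped after values were seen. Named genes were the 15 with the highest ratio to the higher other group, the 12 with the highest IKK2-SE level, the 5 with the smallest adjusted p in each direction in knockdown against scramble, the 3 on each side of the fold limit, members on a list, up to 5 per role, and from the NF-kB components the 4 with the smallest adjusted p in each direction against knockdown. The other members are given for completeness.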

Additional observations from a re-analysis of the deposited data

How the results depend on the processing

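The number of genes that met the rule was 46, and 92 at a fold of 1.5, 28 at a fold of 3 and 16 at a minimum of 5 CPM; with 1 library left out it ran from 45 to 48. The rule no longer held for Platr22 in 4 of these 9 settings, for Tmem154 and Fgd5 in 2 each, and for Klhdc7a, Hal and Gdpd2 without IKK2-SE replicate 3. Genes called higher in knockdown than in scramble cells numbered 24, with 23 to 26 in both the leave-one-out fits and the others, and genes called lower numbered 5, with 4 to 6 in both. Of the 779 results over genes and settings, 746 kept direction and call, 6 lost the call, 16 gained it and 11 changed sign. The calls lost were those of Icam1, U90926 and Klhdc7a. With DESeq2 and without a filter on low counts, Enpp2 (adjusted p 0.0289 and 0.0235), Slc7a2 (0.0418 and 0.0353) and Bahcc1 (0.0466 and 0.0447) passed. Slc7a2 had 5 counts in the knockdown libraries and no count in the scramble libraries, so nothing is read from its values. The sign changes were all in genes that were not called. With a library left out, the log2 difference ran from -3.56 to 0.069 for Vnn3, -0.58 to 0.48 for S100a8, -1.03 to 0.75 for Gdpd2, -0.41 to 0.25 for Bst1 and -0.47 to 0.14 for Hal. With voom it was 0.10 for S100a8 and -0.43 for Gdpd2. The cause was not tested. With a CPM above 1 in 3 libraries as the filter, Klhdc7a, Gdpd2 and Hal were not tested.

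NF-kB components called higher in IKK2-SE than in knockdown cells numbered 16, with 13 to 17 when a library was left out and 14 to 19 in the other fits. NF-kB components called lower than in knockdown cells numbered 1, and 2 with DESeq2, 0 with library totals, 0 with the stricter filter, 0 with only the 2 groups compared and 0 to 1 with a library left out. The labels give each group replicates 1 to 3. Same-numbered libraries deviated together by a correlation of -0.01 to 0.28, and 6 of 9 libraries correlated best with their own number. The 3 pairs of replicate 2 lay between -0.01 and 0.03, so the number was not taken as a pairing. With the replicate block, 3 components were called lower than in knockdown cells, and Fas (adjusted p 0.0449) and Bahcc1 (0.0289) were called higher in knockdown than in scramble cells.

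Depth limits the ratios of genes with few counts in a group, such as Vnn3 and Slc28a3, whose counting intervals against knockdown cells span more than 10-fold.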
